A study of Mus musculus with 4 samples.

Results

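The genes described here are 9 markers of cardiac strain and of the natriuretic peptide system, *Nppa*, *Nppb*, *Corin*, *Npr1*, *Npr3*, *Ankrd1*, *Myh7*, *Acta1* and *Xirp2*, taken by symbol from the 30905 genes of the deposited table, and all 9 were found once. They were followed across the 53824 cells of mouse heart grafts collected on day 5 after transplantation and profiled with 3′ single-cell RNA sequencing. The study held 2 allogeneic grafts, BALB/c hearts placed in C57BL/6J recipients, and 2 syngeneic grafts, C57BL/6J hearts placed in C57BL/6J recipients. Donors and recipients were males aged 8 to 10 weeks, each graft was an additional heart in the abdomen of a recipient that kept its own heart, and the labels give no engineered allele and no drug for either group. Cells carry a barcode suffix from 1 to 4, called libraries 1 to 4 below. Which graft a suffix stands for is not given in the sources used here. All cells therefore form 1 pooled sample, each library is given as a value of its own, and nothing is said of allogeneic against syngeneic grafts.

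Natriuretic peptides are hormones that heart muscle cells release when they are stretched. *Nppa* encodes the precursor of atrial natriuretic peptide and *Nppb* that of B-type natriuretic peptide, the membrane protease corin cleaves the former precursor, the receptor encoded by *Npr1* is a guanylyl cyclase that raises cGMP in vessels and other target tissues, and the receptor encoded by *Npr3* removes the peptides from the circulation. In the healthy adult heart *Nppa* is mainly a gene of the atria. Under load or injury the ventricle turns it on again together with *Nppb*, with the slow myosin heavy chain *Myh7* and with the skeletal actin *Acta1*, while *Ankrd1* and *Xirp2* encode an ankyrin repeat protein of the sarcomere and an actin-binding protein of the intercalated disc.

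A level is the number of unique molecular identifiers (UMIs) of a gene per 1000000 non-mitochondrial UMIs (CPM), summed over a set of cells. Brackets give an exact Poisson 95% interval, which covers counting error only and not the spread between cells or between grafts. Intervals that lie apart therefore show only that counting error does not span the difference. Levels of different genes are not compared, since 3′ counting catches genes unequally. Cells were named "X-like" from marker genes after clustering without the 9 genes. The 4 libraries held 96020294 to 166079145 UMIs in 13112 to 13907 cells each, and 308 of 53516 distinct barcodes occurred in more than 1 library. With the study's limit of under 20% mitochondrial UMIs, 42395 cells were kept, of which 1101 were cardiomyocyte-like, 751 in library 1, 165 in library 2, 158 in library 3 and 27 in library 4. Without that limit 50975 cells were kept and clustered again, of which 1784 were cardiomyocyte-like, 1244, 204, 321 and 15 by library in the same order, and 707 of these were at or over 20%. All 14 cardiomyocyte markers were detected in the class. Without the limit, cells of libraries 1, 3 and 4 came from 1 cluster of 1605 cells, while 179 of the 204 cells of library 2 formed a cluster of their own.

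The upstream stretches of *Nppa*, *Acta1* and *Xirp2* are shown because these genes, together with *Nppb*, differed most of the 9 between libraries 3 and 1, and because each stretch lies wholly before the annotated start of its gene. Each is the 250 bases before the transcription start in RefSeq, build GRCm38.p6, read 5′ to 3′ on the strand of the gene. Capitals mark matches on either strand to the letters CATTCC of the MCAT motif bound by TEAD factors, to GATAA of the sites of GATA factors, to AAGTG of the sites of NKX2-5 and to TATAAA of the TATA box, and to the CArG and MEF2 motifs. No 2 of the motifs overlap in the stretches shown.
Nppa: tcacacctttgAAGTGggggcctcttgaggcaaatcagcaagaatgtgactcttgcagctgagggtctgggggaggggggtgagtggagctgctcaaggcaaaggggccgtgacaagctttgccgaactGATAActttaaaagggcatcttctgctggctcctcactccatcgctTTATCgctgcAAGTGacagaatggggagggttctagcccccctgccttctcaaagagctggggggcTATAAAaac
Acta1: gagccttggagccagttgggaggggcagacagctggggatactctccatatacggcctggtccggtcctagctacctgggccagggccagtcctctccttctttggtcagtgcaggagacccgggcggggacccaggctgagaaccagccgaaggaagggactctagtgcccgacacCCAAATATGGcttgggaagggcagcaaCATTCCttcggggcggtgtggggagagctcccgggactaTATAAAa
Xirp2: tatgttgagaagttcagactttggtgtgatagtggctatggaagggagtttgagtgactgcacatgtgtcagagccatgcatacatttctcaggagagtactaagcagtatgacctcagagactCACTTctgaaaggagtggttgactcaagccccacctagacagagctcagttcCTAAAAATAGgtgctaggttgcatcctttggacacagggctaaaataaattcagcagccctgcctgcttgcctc
The *Nppa* stretch is chr4:148000472-148000721 on the plus strand, that of *Acta1* is chr8:123894776-123895025 on the minus strand, and that of *Xirp2* is chr2:67445752-67446001 on the plus strand. *Nppa* holds 2 GATA, 2 NKX2-5 and 1 TATA match, *Acta1* holds 1 CArG, 1 MCAT and 1 TATA match, and *Xirp2* holds 1 NKX2-5 and 1 MEF2 match. Counted from the start used, the TATA match lies at -9 to -4 in *Nppa* and -7 to -2 in *Acta1*, against -31 to -26 in *Nppb*. Whether transcription begins at these starts in the grafts was not tested, so the distances are not read as those of a working TATA box. Among 32851 promoter stretches of the same length in the RefSeq table, 12.6% hold the MCAT letters, 22.6% GATA, 40.7% NKX2-5, 12.4% TATA, 1.47% CArG and 0.508% MEF2. Of the other members, *Nppb* has 1 MCAT, 2 GATA and 1 TATA match, *Ankrd1* has 2 MCAT and 1 GATA match, and the first of the 2 listed starts of *Myh7* has 1 MCAT and 2 NKX2-5 matches. *Npr1*, *Npr3* and *Corin* have none of these letters in their stretches.

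Of the 9 genes, 6 were highest in cardiomyocyte-like cells among the 11 named classes and the other 3 were highest in another class. Under the mitochondrial limit the level in cardiomyocyte-like cells was 904.5 CPM (867 to 944) for *Nppa*, against 9.25 CPM over all other named cells, and 176 CPM (159 to 194) for *Nppb*, against 1.54 CPM. Among the genes of contractile cells it was 3756 CPM (3678 to 3835) for *Ankrd1*, 1512 CPM (1463 to 1562) for *Acta1*, 463 CPM (436 to 491) for *Xirp2* and 251 CPM (231 to 272) for *Myh7*. These 6 genes were 4-fold or more higher than in all other named cells, with 10 CPM added to both levels, from 16.1-fold for *Nppb* to 101-fold for *Ankrd1*. The added 10 CPM lowers a fold most where the other cells hold least, so these folds do not rank the genes. It also keeps genes as low in cardiomyocyte-like cells as *Corin*, *Npr1* and *Npr3* from reaching 4-fold. Over all 14289 genes with at least 200 UMIs in this comparison, 2.81% passed the same fold and 3.8% were 4-fold or more lower, with no member among the latter.

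**Figure D1:**
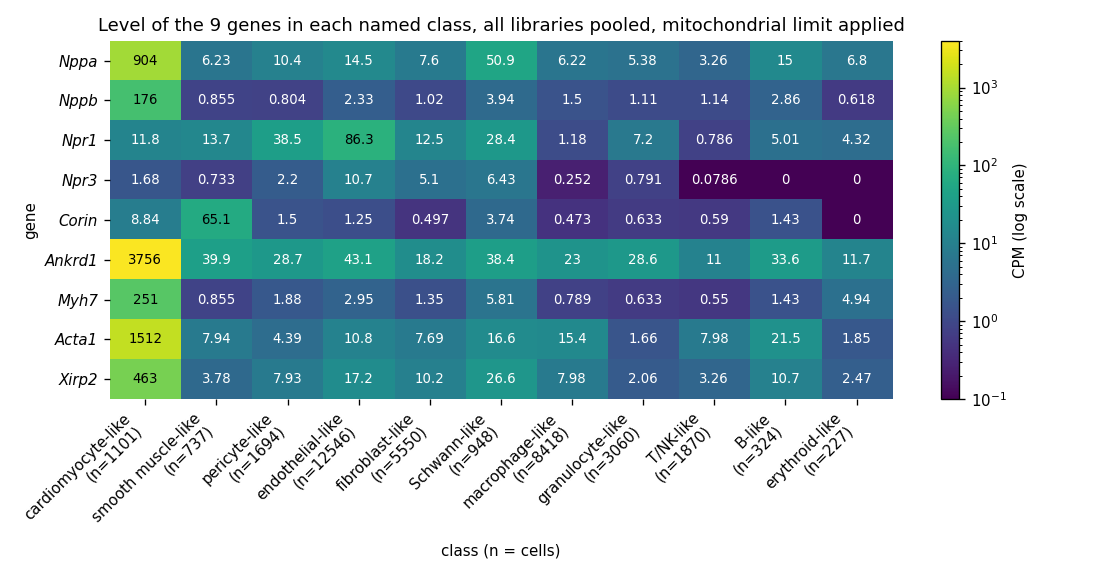
Level of each of the 9 genes (rows) in each of the 11 named classes (columns, with the number of cells), as CPM of non-mitochondrial UMIs on a log colour scale, all libraries pooled under the mitochondrial limit. Each cell of the grid prints its CPM, from 3756 for *Ankrd1* in cardiomyocyte-like cells down to 0, and *Corin*, *Npr1* and *Npr3* peak in other columns than the remaining 6 genes.

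Transcripts of the 6 genes also appeared at low levels in every other class. *Nppa* was at 50.9 CPM (44.7 to 57.6) in Schwann-like cells and between 3.26 and 15.0 CPM in the other 9 classes. Without the mitochondrial limit no cluster was named Schwann-like. Cells of unnamed clusters, 5920 with the limit and 11158 without it, belong to no class and are left out of the comparisons with other named cells. They include the shallow cluster of library 4 described at the end. With and without the limit they held 39.9 and 72.9 CPM of *Nppa*, 240 and 214 CPM of *Ankrd1*, and 129 and 137 CPM of *Acta1*. After each cell was thinned to 1000 UMIs, 17.2% of cardiomyocyte-like and 0.705% of T/NK-like cells held an *Nppa* UMI, with median depths of 1303 and 8424 UMIs before thinning, and T/NK cells are not a known source of this peptide. Within a library the ratio of *Nppa* to the muscle gene *Tnnt2* was set beside that in cardiomyocyte-like cells. In cardiomyocyte-like cells without the mitochondrial limit it was 1.71, 1.40, 45.6 and 39.7 *Nppa* UMIs per 100 *Tnnt2* UMIs in libraries 1 to 4. In all other named cells, taken from the clustering under the limit, it was 3.38, 2.66, 46.2 and 27.5. How close these ratios lie depends on the cells counted. Under the limit, cardiomyocyte-like cells of library 3 held 1392 *Nppa* and 5122 *Tnnt2* UMIs, and those of library 4 held 435 and 1192. For *Acta1* the ratio was 0.227, 4.40, 19.8 and 243 in cardiomyocyte-like cells without the limit and 0.850, 4.62, 26.7 and 150 in the others under it. The 4 libraries fell in the same order for *Acta1* in both kinds of cells, and for *Nppa* libraries 3 and 4 were high and libraries 1 and 2 low in both. Values at this low level were not read as expression by the non-muscle classes.

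The peptide genes differed widely between libraries within cardiomyocyte-like cells. Without the mitochondrial limit *Nppa* was at 261 CPM (240 to 283) in library 1, 103 CPM (68.3 to 149) in library 2, 6470 CPM (6262 to 6683) in library 3 and 5090 CPM (4527 to 5704) in library 4. Libraries 3 and 4 were high and libraries 1 and 2 low, and the counting intervals of the high and low libraries did not overlap. *Nppb* was at 26.9 CPM (20.5 to 34.7) in library 1, 224 CPM (171 to 288) in library 2, 681 CPM (615 to 753) in library 3 and 2201 CPM (1836 to 2617) in library 4. All 4 intervals of *Nppb* were apart, and library 2, the lowest for *Nppa*, exceeded library 1 for *Nppb*. The library 4 values rest on 15 cells, those of library 3 on 321, and a further cluster of library 4 that stayed unnamed is described at the end.

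The peptides were also unevenly spread among the cells. In library 3, the 33 cells with the most *Nppa* UMIs of the 321 held 76.2% of them, and 1 cell alone held 811. In cells of library 3 thinned to 1000 UMIs, 64.3% held *Nppa* and 29.2% held *Nppb*, against 6.37% and 1.82% in library 1. Among the thinned cells of library 3, *Nppb* was found in 36.4% of those with an *Nppa* UMI and in 16.4% of those without.

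*Acta1* showed the widest range between libraries. Its level was 34.6 CPM (27.3 to 43.4) in library 1, 323 CPM (259 to 398) in library 2, 2811 CPM (2675 to 2953) in library 3 and 31177 CPM (29758 to 32646) in library 4, and no 2 of the intervals overlapped. *Xirp2* was at 180.5 CPM (163 to 199) in library 1, 198 CPM (149 to 259) in library 2, 1716 CPM (1610 to 1828) in library 3 and 2769 CPM (2357 to 3231) in library 4. The intervals of libraries 1 and 2 overlapped for *Xirp2*. *Ankrd1*, which was present in 77.1% to 93.3% of thinned cells of every library, varied less, from 2305 CPM (2241 to 2369) in library 1 and 5605 CPM (5411 to 5803) in library 3 to 6870 CPM (6562 to 7188) in library 2 and 16405 CPM (15381 to 17480) in library 4. Reads of *Acta1* and of its close relative *Actc1*, and those of *Myh7* and *Myh6*, come from closely related genes, and how the counting divided them was not tested. *Actc1* was at 4889, 1223, 7684 and 1427 CPM in libraries 1 to 4.

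**Figure D2:**
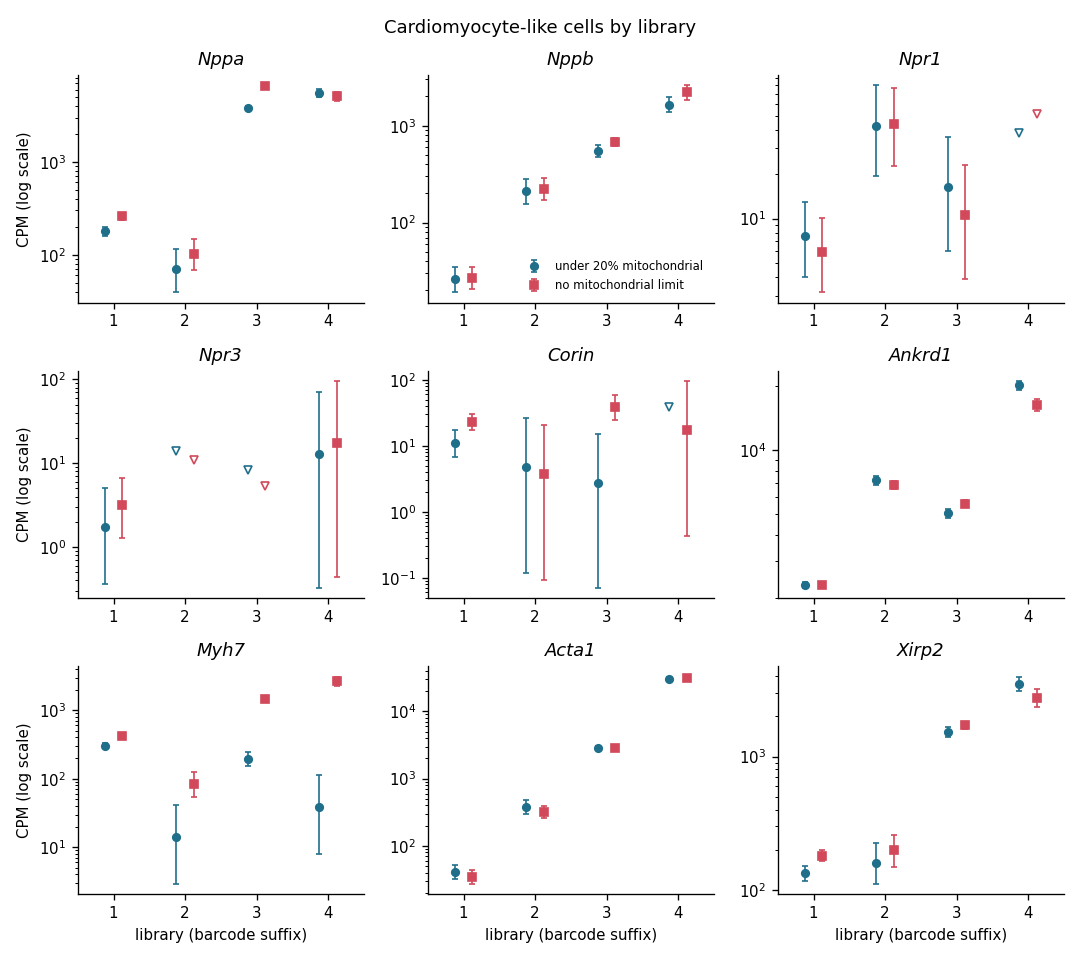
Level of each of the 9 genes in cardiomyocyte-like cells of libraries 1 to 4 (x axis) on a log CPM axis, circles under the mitochondrial limit and squares without it, bars exact Poisson 95% intervals, open triangles the level that 3 UMIs would give where the count was 0. *Nppa*, *Nppb*, *Acta1* and *Xirp2* stand higher in libraries 3 and 4 than in library 1 under both settings, while *Myh7* in libraries 3 and 4 differs between the settings.

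Libraries 1 and 3 hold most cardiomyocyte-like cells, and they were set side by side over all genes, a comparison chosen after the values had been seen. Relative to library 1, and with 10 CPM added to both, library 3 was 63.2-fold higher for *Acta1*, 23.9-fold for *Nppa*, 18.7-fold for *Nppb* and 9.06-fold for *Xirp2*. These 4 of the 7 members with at least 50 UMIs were past 4-fold, while *Myh7* at 3.36-fold, *Ankrd1* at 2.43-fold and *Corin* at 1.47-fold were not. Of 5250 genes compared, 0.667% were 4-fold or more higher in library 3 and 0.21% were 4-fold or more lower, the latter with no member among them. Under the mitochondrial limit the same 4 members were past 4-fold, from 10.8-fold to 55.7-fold, beside 0.642% of 4205 genes, and no member was among the 0.38% that were lower. Since each library is a single unlabelled graft or suffix, these folds have no replicate check.

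Markers of other cells also differed between the libraries of this class, read here without the mitochondrial limit. Summed over their lists, the 6 erythroid markers took 1.46% of the UMIs in library 1 and 0.0203% in library 3, the 8 granulocyte markers took 0.972% in library 2 and 0.0136% to 0.0258% in the others, and the 10 endothelial markers took 1.56% in library 2 and 0.0138% to 0.308% in the others. The 13 macrophage markers took 0.0464% and 0.0408% in libraries 1 and 2 and 0.137% and 0.187% in libraries 3 and 4. They were thus higher in the same libraries as *Nppa*. In the 15 cells of library 4, with 58152 UMIs, *Adgre1*, *Csf1r*, *Cd68* and *Mrc1* were at 0. In its 27 cells under the mitochondrial limit only *Csf1r* was at 0, and the 13 markers took 0.264%. The 10 T/NK markers took 0.0344% in library 4, with 5 of them at 0, and 0.00110% to 0.00164% in the others. Over the whole class *Ncr1* of the T/NK list was the only marker of these 5 lists at 0. The summed share of the 14 cardiomyocyte markers ranged from 4.56% in library 4 to 9.97% in library 1. Their part in the differences of the 9 genes was not tested.

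*Myh7* changed its order between libraries with the cells that were counted. Without the mitochondrial limit it was at 422 CPM (395 to 450) in library 1, 84.5 CPM (53.5 to 127) in library 2, 1440 CPM (1343 to 1543) in library 3 and 2631 CPM (2231 to 3083) in library 4. With the limit it was at 302 CPM (276 to 329), 14.1 CPM (2.91 to 41.3), 195 CPM (152 to 246) and 38.2 CPM (7.88 to 112) in the same order. Library 3 was thus above library 1 without the limit and below it with the limit, at 0.658-fold. In library 4 without the limit, 151 of the 153 *Myh7* UMIs were in 1 cell. Of the 1915 *Myh7* UMIs of the class, 1148 lay in a small group of cells, described next.

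Clustering the 1784 cells again without the 9 genes gave 6 subclusters, of which subcluster 6, with 45 cells, was atrial-like by *Myl7*, *Sln* and *Myl4*, light chains and a calcium pump regulator of the atria that led its genes. It drew 29 cells from library 1, 2 from library 2, 13 from library 3 and 1 from library 4. *Nppa* was at 7331 CPM (7000 to 7673) in it, *Nppb* at 864 CPM (753 to 986), *Myh7* at 4569 CPM (4308 to 4841) and *Corin* at 195 CPM (144 to 258). *Acta1* had no UMI in these 45 cells, where 3 UMIs would give 11.9 CPM. *Xirp2* was at 720 CPM (619 to 833) and *Ankrd1* at 5528 CPM (5241 to 5826). The remaining 5 subclusters held 9.75 to 323 CPM of *Myh7* and at most 12.3 CPM of *Corin*, and both genes had their highest level among the 6 subclusters in the atrial-like cells.

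Atrial-like cells were not alike across libraries. *Nppa* was at 694 CPM (549 to 865) in the 29 cells of library 1 and at 14694 CPM (14014 to 15399) in the 13 cells of library 3. It was found in 3 of the former and 10 of the latter, and their median depths were 1041 and 6630 UMIs. *Nppb* had no UMI in the former, with an interval of 0 to 32.4 CPM, and was at 1520 CPM (1306 to 1758) in the latter. *Corin* was at 246 CPM (163 to 355) and 168 CPM (103 to 259), with overlapping intervals. *Myh7* was at 2231 CPM (1965 to 2523) and 6071 CPM (5636 to 6530). It was found in 8 of the 29 and 6 of the 13 cells, and 1 cell of library 3 alone held 319 UMIs. These *Myh7* levels thus rest on few cells.

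Without the atrial-like subcluster, *Nppa* was at 237 CPM (217 to 259) in library 1 and 4274 CPM (4085 to 4471) in library 3, and *Myh7* at 323 CPM (299 to 348) and 204 CPM (164 to 250). The 4 members past 4-fold between these libraries stayed past it, at 76.7-fold for *Acta1*, 17.3-fold for *Nppa*, 12.2-fold for *Nppb* and 12.1-fold for *Xirp2*, beside 0.533% of 4692 genes, with no member among the 0.234% that were lower. *Myh7* turned to 0.643-fold in library 3 relative to library 1.

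The other cells with much *Nppa* were in subcluster 3, 308 cells of which 250 came from library 3, 44 from library 1 and 14 from library 4. It was led by *Acta1*, the antigen presentation genes *Cd74*, *H2-Eb1* and *H2-Aa*, the stress-induced gene *Sprr1a* and *Xirp2*. *Nppa* was at 4934 CPM (4729 to 5145), *Nppb* at 644 CPM (571 to 723), *Acta1* at 7234 CPM (6985 to 7489) and *Xirp2* at 2201 CPM (2064 to 2343) in it. *Corin* was at 4.53 CPM (0.549 to 16.4) and *Myh7* at 258 CPM (213 to 310), the latter close to the 270 CPM (251 to 290) of all cardiomyocyte-like cells without the atrial-like ones. Inside subcluster 3 the libraries still differed. *Acta1* was at 57.0 CPM in the cells of library 1, 4296 CPM in those of library 3 and 35562 CPM in those of library 4, and *Xirp2* at 71.2, 2531 and 3060 CPM. *Nppa* differed less, at 1865, 5468 and 5806 CPM.

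The other 4 subclusters, mostly of libraries 1 and 2, held 73.1 to 409 CPM of *Nppa* and 3.28 to 239 CPM of *Nppb*. Subcluster 4, 191 cells of library 2 led by the granulocyte genes *Retnlg*, *S100a9* and *S100a8*, had the highest *Ankrd1*, 7652 CPM (7278 to 8040), beside 9.75 CPM (1.18 to 35.2) of *Myh7*. Subcluster 2, 309 cells led by *Plin5*, *Rpl3l* and *Mlycd*, had the lowest *Acta1* among the 5 subclusters that held it, 40.9 CPM (29.7 to 54.9). Of the 6 subclusters, only the atrial-like one was named, since no other reached 3 markers of atrial or ventricular cells. A marker counted only if it was 2-fold higher than in the other subclusters, so a marker shared alike by most subclusters could not count. The ventricular marker *Myl2* was found in 94.6% to 100% of the class in each library. These shares include the atrial-like cells, so detection of *Myl2* does not separate them from the others. Given the naming rule, the missing name does not mean that these cells lack a ventricular identity, and that identity was not tested.

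**Figure D3:**
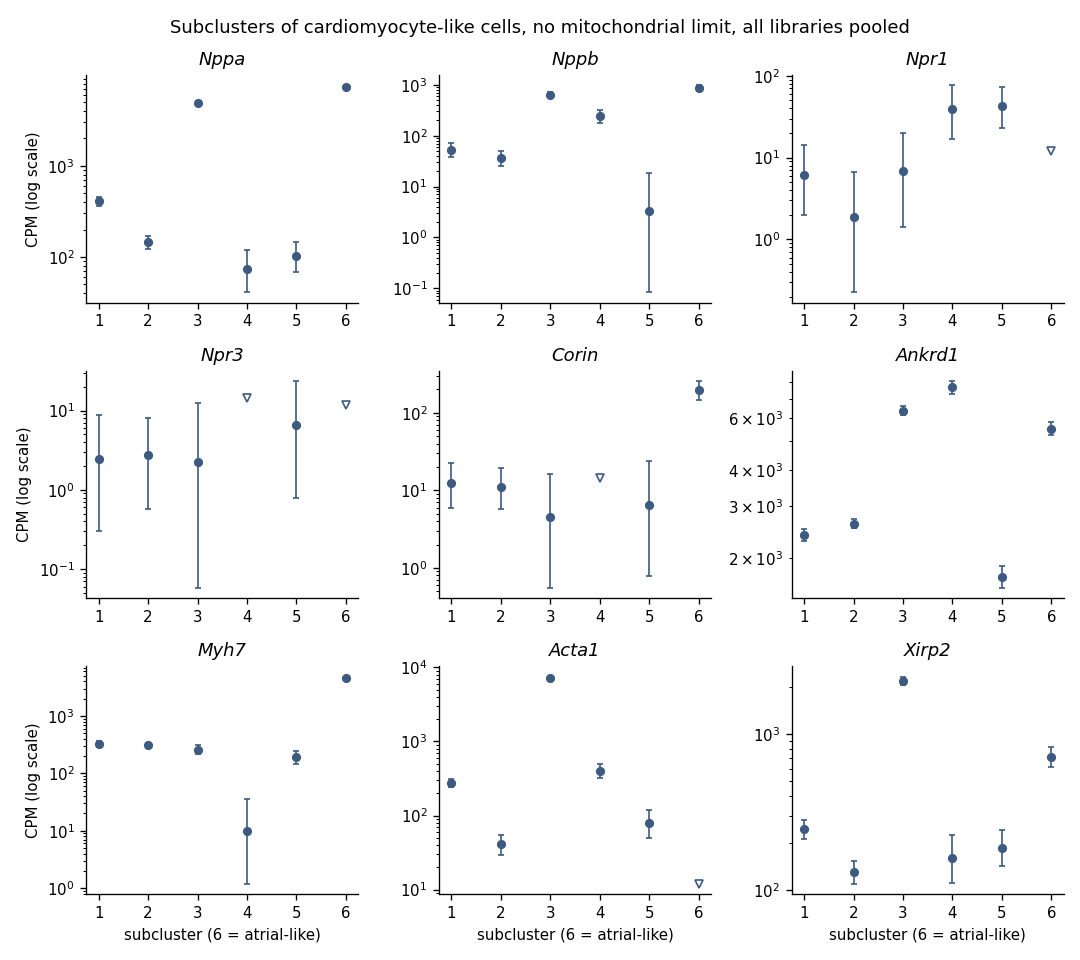
Level of each of the 9 genes in the 6 subclusters of cardiomyocyte-like cells (x axis) on a log CPM axis, all libraries pooled without the mitochondrial limit, bars exact Poisson 95% intervals and open triangles the level of 3 UMIs where the count was 0. *Nppa* and *Nppb* are highest in subclusters 3 and 6, *Acta1* and *Xirp2* in subcluster 3, and *Corin* and *Myh7* in the atrial-like subcluster 6.

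Without the mitochondrial limit, and with the cells clustered again, the pooled level of several members was higher. In cardiomyocyte-like cells *Nppa* went from 904.5 to 1474 CPM (1431 to 1517), *Myh7* from 251 to 620 CPM (592 to 648) and *Corin* from 8.84 CPM (5.47 to 13.5) to 24.3 CPM (19.1 to 30.4), while *Acta1* went from 1512 to 1154 CPM (1117 to 1193). Within the class without the limit, *Corin* was at 8.53 CPM in cells under 20% mitochondrial UMIs, 32.8 CPM from 20% to 40%, 112 CPM from 40% to 60% and 206 CPM at 60% or over, from 1077, 579, 51 and 77 cells. *Nppa* was at 871, 1144, 5717 and 11468 CPM in the same order, and *Acta1* at 1201, 1326, 455 and 60.5 CPM. For *Acta1* the level in cells under 20% was thus already below the 1512 CPM of the class under the limit, and cells of library 4 in the class went from 27 to 15 with the new clustering.

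Cells at or over 20% were compared with cells under 20% within this class. With 10 CPM added to both, *Myh7* was 5.80-fold higher, *Corin* 4.05-fold and *Nppa* 3.45-fold, so 3 of the 7 members with enough UMIs were 2-fold or more higher, beside 4.5% of 5794 genes. No member was among the 0.121% of genes that were 2-fold or more lower. Within library 1, *Nppa* was at 194 CPM under 20% and 439 CPM at or over 20%, and within library 3 at 3873 and 10780 CPM. *Myh7* was at 315 and 705 CPM in library 1 and at 198.5 and 3501 CPM in library 3.

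The atrial-like cells lay mostly at high mitochondrial share. Of the 45, 9 were under 20%, 10 from 20% to 40%, 13 from 40% to 60% and 13 at 60% or over. Without them, no member was 2-fold apart between cells at or over and under 20%, beside 0.787% of 5208 genes that were higher and 0.154% that were lower, and *Nppa* was 1.34-fold, *Myh7* 1.17-fold and *Xirp2* 1.59-fold higher. *Corin* then had 26 UMIs in 1739 cells, 9.16 CPM (5.98 to 13.4), and was too low to be compared. *Nppa* was at 882, 1192, 747 and 1953 CPM over the 4 ranges of mitochondrial share without these cells, the last from 64 cells, and the first 3 values showed no steady rise. The range at 60% or over also differed for other members. *Nppb* was at 770 CPM (512 to 1113) and *Xirp2* at 990 CPM (694 to 1371) in it, against 142 and 432 CPM under 20%. *Acta1* was lower, at 138 CPM (44.7 to 321) against 1236 CPM, and *Myh7* was at 248 against 260 CPM. Of the 64 cells, 5 held *Nppa*, 5 *Nppb*, 8 *Xirp2* and 4 *Acta1*.

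**Figure D4:**
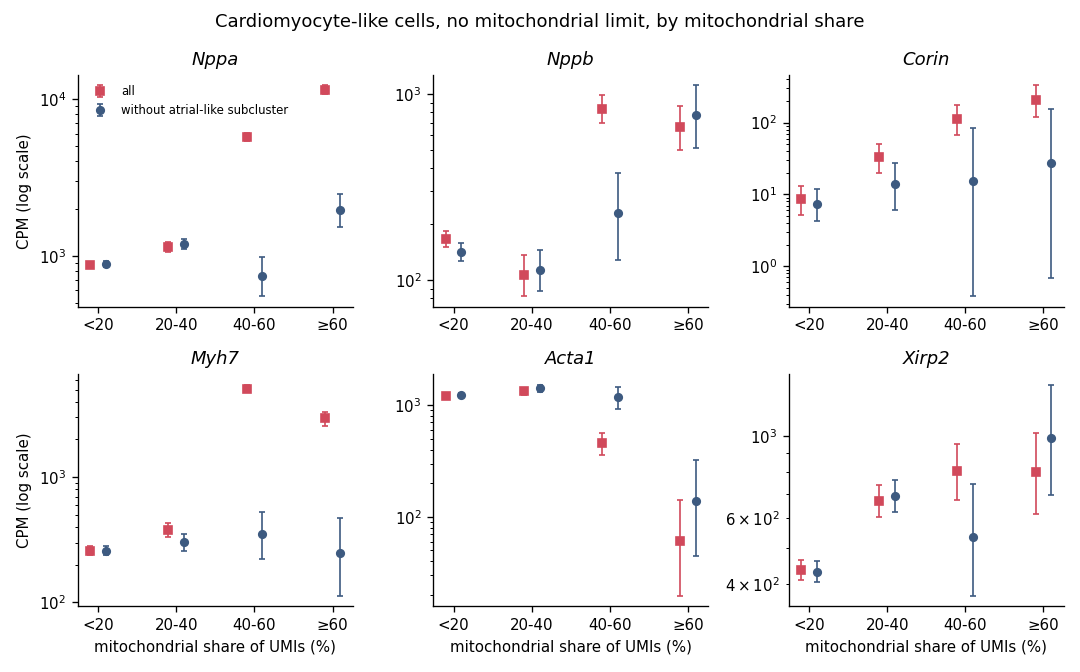
Level of 6 members in cardiomyocyte-like cells without the mitochondrial limit, by the share of a cell's UMIs that were mitochondrial (x axis, percent), on a log CPM axis with exact Poisson 95% intervals, squares for all cells and circles without the 45 atrial-like cells. At 60% or over *Nppa* is at 11468 CPM in all cells and at 1953 CPM without the atrial-like cells, and *Myh7* is at 2943 and 248 CPM.

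*Corin*, the peptide convertase, was highest in smooth muscle-like cells among the named classes, below its level of 195 CPM (144 to 258) in the 45 atrial-like cells described above. Its level was 65.1 CPM (59.7 to 70.8) in 737 smooth muscle-like cells, 8.84 CPM (5.47 to 13.5) in cardiomyocyte-like cells under the mitochondrial limit, and 0 to 3.74 CPM in the other 9 classes. Without the limit it was 70.3 CPM (65.5 to 75.4) in smooth muscle-like and 24.3 CPM in cardiomyocyte-like cells. By library, smooth muscle-like cells held 88.0 CPM (76.2 to 101) in library 1, 44.8 CPM (37.4 to 53.2) in library 2 and 70.5 CPM (61.0 to 81.1) in library 3, each from over 200 cells. At 1000 UMIs a cell, *Corin* was found in 4.63% of smooth muscle-like and 0.0596% of macrophage-like cells, which should lack it, with median depths of 9847 and 14358 UMIs. Its ratio to *Tnnt2* in other named cells under the limit was 4.21 to 7.36 UMIs per 100 over the 4 libraries. In cardiomyocyte-like cells without the limit it was 0.0500 to 0.274.

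*Npr1*, the cGMP-producing receptor, was highest in endothelial-like cells among the named classes but not confined to them. Its level was 86.3 CPM (84.5 to 88.1) in endothelial-like cells, 38.5 CPM (35.8 to 41.5) in pericyte-like cells, 28.4 CPM (23.9 to 33.6) in Schwann-like cells, 13.7 CPM (11.3 to 16.5) in smooth muscle-like cells, 12.5 CPM (11.8 to 13.2) in fibroblast-like cells and 11.8 CPM (7.83 to 17.0) in cardiomyocyte-like cells. The last 3 of these did not differ beyond their counting intervals. The Schwann-like class was named only under the mitochondrial limit, and whether its cells express *Npr1* themselves was not tested. In cardiomyocyte-like cells the level was 7.55, 42.3, 16.5 and 0 CPM in libraries 1 to 4, that of library 2 from 9 UMIs. The 10 endothelial markers took 1.57% of the UMIs of these library 2 cells. Whether cardiomyocyte-like cells express *Npr1* themselves was likewise not tested. At 1000 UMIs a cell, 8.95% of endothelial-like and 0.0835% of macrophage-like cells held *Npr1*, at median depths of 5728 and 14358 UMIs. In endothelial-like cells it was at 103 CPM (99.3 to 107) in library 1, 89.7 CPM (86.6 to 92.9) in library 2, 79.4 CPM (76.6 to 82.3) in library 3 and 52.2 CPM (47.4 to 57.4) in library 4, and in pericyte-like cells of libraries 1 to 3 it was at 41.4, 37.7 and 39.1 CPM, with overlapping intervals.

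*Npr3*, the clearance receptor, was highest in a narrow group of endothelial-like cells under the mitochondrial limit. Clustering endothelial-like cells again without the 9 genes gave 12 subclusters, and *Npr3* was at 709 CPM (666 to 754) in the endocardial-like subcluster of 137 cells. In the other 11 subclusters it was at 0 to 4.19 CPM. *Npr1* was at 65.5 CPM (52.9 to 80.2) in the endocardial-like cells and at 48.9 to 101 CPM in the other subclusters, so the 2 receptors differed in their spread. Endocardial-like cells of library 1 held 1047 CPM (978 to 1120) of *Npr3* in 81 cells, and those of library 3 held 169 CPM (136 to 207) in 50 cells. The shares of cells with a UMI at 1000 UMIs were 56.8% and 16.0%.

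Over all endothelial-like cells *Npr3* was at 36.5 CPM (34.2 to 39.0) in library 1, 2.62 CPM in library 2 and 3.33 CPM in library 3. The 633 cells of library 4 held no *Npr3* UMI, where 3 UMIs would give 0.362 CPM. Fibroblast-like cells held it at 12.8 CPM (11.5 to 14.2) in library 1 and at 2.02 to 2.38 CPM in the others. In cardiomyocyte-like cells *Npr3* had 4 UMIs, 1.68 CPM (0.459 to 4.31). Without the mitochondrial limit most *Npr3* UMIs lay outside the named endothelial-like class, which fell to 2.08 CPM (1.81 to 2.38) and 213 UMIs, from 10.7 CPM and 1129 UMIs with the limit. Fibroblast-like cells then had the highest level of the named classes, 6.16 CPM (5.69 to 6.66). An unnamed cluster of 3564 shallow cells with 8 of the 10 endothelial markers, led by lymphatic genes such as *Ccl21a* and *Mmrn1*, then held 1037 *Npr3* UMIs, 150 CPM (141 to 159). These UMIs lay in 142 of its cells, 3.98%. Whether those were lymphatic cells or the endocardial-like cells of the clustering under the limit was not tested.

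**Figure D5:**
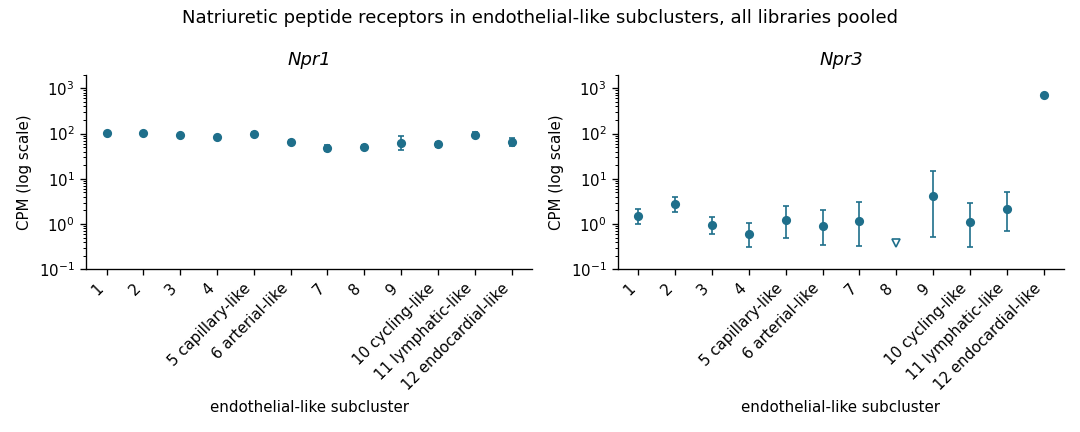
Level of *Npr1* (left) and *Npr3* (right) in the 12 endothelial-like subclusters (x axis, named where their markers allow) on a log CPM axis, all libraries pooled under the mitochondrial limit, bars exact Poisson 95% intervals and an open triangle the level of 3 UMIs where the count was 0. *Npr1* lies between 48.9 and 101 CPM in every subcluster, and *Npr3* stands at 709 CPM in the endocardial-like subcluster 12.

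A cluster of 135 cells that stayed unnamed also held much of several members, and 134 of its cells came from library 4. It had 11 of the 14 cardiomyocyte markers but a median of 760 UMIs a cell, too shallow to be named with no fixed marker among its 10 leading genes. *Acta1* was at 11688 CPM (11145 to 12251) in it, *Ankrd1* at 17522 CPM (16856 to 18209), *Nppa* at 2698 CPM (2441 to 2976), *Xirp2* at 1884 CPM (1670 to 2118) and *Nppb* at 814 CPM (676 to 973). *Myh7* had 2 UMIs and *Corin*, *Npr1* and *Npr3* none, with an interval of 0 to 24.8 CPM each. These cells are not part of the cardiomyocyte-like values above. Without the limit the like cluster held 188 cells, 184 of library 4. Counted in, it took library 4 without the limit from 15 to 199 cells, and its level from 31177 to 16386 CPM (15928 to 16854) for *Acta1*, from 2201 to 1109 CPM (992 to 1236) for *Nppb*, from 5090 to 3242 CPM (3040 to 3454) for *Nppa*, from 2769 to 2208 CPM (2041 to 2384) for *Xirp2* and from 2631 to 538 CPM (457 to 628) for *Myh7*. *Acta1*, *Nppb* and *Xirp2* then still stood higher in library 4 than in libraries 1 to 3, while *Nppa* and *Myh7* stood below library 3.

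Other genes of the pathways were read from lists. None of the 13 natriuretic pathway genes with enough UMIs, of 15 listed, was 4-fold or more higher in cardiomyocyte-like than in other named cells. The share over all genes was 2.81%. With 10 CPM added to both levels, genes at levels as low as those given next cannot reach 4-fold. The count therefore does not show whether the pathway is enriched in these cells. The addition also draws the folds of such genes toward equality. The median of the 13 was 0.793-fold beside 0.812-fold over all genes tested. The 3 with the most UMIs in cardiomyocyte-like cells without the limit, a choice by count that does not rank genes by expression, were *Ide*, an insulin-degrading enzyme that also cuts natriuretic peptides, at 28.8 CPM (23.1 to 35.4), the convertase *Furin* at 21.4 CPM (16.5 to 27.2) and the guanylyl cyclase subunit *Gucy1a1* at 19.7 CPM (15.1 to 25.4). In endothelial-like cells *Furin* was at 99.6 CPM (97.7 to 101), the receptor *Npr2* at 37.4 CPM (36.2 to 38.6) and *Ide* at 23.5 CPM (22.6 to 24.4).

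Of 13 tested cardiac stress genes related to the members, 6 were 4-fold or more higher in cardiomyocyte-like cells, beside 2.81% of all genes, and 1, *Ctgf*, was 4-fold or more lower, beside 3.8%. Their median was 3.61-fold, against 0.812-fold over all genes. *Cryab*, a small heat shock protein, was at 4041, 7042, 6006 and 37454 CPM in libraries 1 to 4, the intermediate filament gene *Des* at 2331, 1105, 7017 and 9475 CPM, and *Csrp3*, a Z-disc protein, at 2448, 573, 2519 and 9269 CPM. Between libraries 3 and 1, 2 of 11 tested stress genes, *Rcan1* and *Ctgf*, were 4-fold or more higher, beside 0.667% of all genes, with a median of 2.53-fold beside 1.04-fold. Without the atrial-like cells, and likewise under the mitochondrial limit, only *Ctgf* of 10 tested was past it, beside 0.533% and 0.642% of all genes. Of 16 cardiac transcription factors, 1 was past 4-fold in the class, beside 2.81% of all genes, *Nkx2-5*, at 106 CPM (95.3 to 119), while *Mef2a* was at 138 CPM (125 to 152) and *Mef2c* at 87.1 CPM (77.0 to 98.1). None of 14 tested factors was past 4-fold between libraries 3 and 1, beside 0.667% of all genes that were higher. *Nkx2-5* was at 110 CPM (96.8 to 125) in library 1 and 113 CPM (87.2 to 145) in library 3.

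The genes with the pattern most like each member over 33 profiles of class by library were found among 14625 genes by Pearson correlation of log2(CPM + 10). *Nppa* was closest to *Xirp2* (0.94), *Acta1* to *Xirp2* (0.94), *Nppb* (0.93) and *Synpo2l* (0.88), and *Xirp2* to *Nppa* (0.94), *Acta1* (0.94) and *Ankrd23* (0.91). *Nppb* was closest to *Nmrk2* (0.97), *Ankrd23* (0.95) and *1110002E22Rik* (0.95), *Ankrd1* to *Myoz2* (0.95), *Mypn* (0.95) and *Itgb1bp2* (0.95), and *Myh7* to *Mlip* (0.98), *Gm45670* (0.97) and *Plet1os* (0.97). *Corin* was closest to *Pnck* (0.98), the smooth muscle gene *Cnn1* (0.97) and *Ppp1r1a* (0.97), *Npr1* to *Ephb4* (0.97), *Tshz2* (0.96) and *Yes1* (0.96), and *Npr3* to the clotting factor gene *F8* (0.80), *Hmcn1* (0.79) and *Robo2* (0.78). The profiles share their libraries and depths, 3 of the 33 are cardiomyocyte-like, and these values are a description.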

How the data were processed

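The counts of UMIs per gene and cell were used as deposited, in 1 merged table that was not normalized. The table header gives software version 3.0.0, and the study's methods and processing notes name Cell Ranger, build mm10 and Ensembl 92. The deposited barcode and gene lists supplied the library suffixes, symbols and identifiers. Cells with over 200 genes and under 20% mitochondrial UMIs were kept, 5% were left out as simulated doublets per library, and the 2000 most variable genes, without the 52 genes of the fixed lists, gave 10 principal components and Leiden clusters at a resolution of 0.8 (leidenalg 0.10.2, igraph 0.11.9, Python 3.11.15). A second clustering had no mitochondrial limit, and classes were clustered again at 0.5. A class name needed at least 3 fixed markers found in 10% of the cells of a cluster and 2-fold higher than in the others.

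Levels are CPM of non-mitochondrial UMIs with exact Poisson 95% intervals (scipy 1.17.1), and folds had 10 CPM added. The fold and interval formulas were checked on simulated Poisson counts, which have no spread between cells, and thinning was checked on real cells. Doublet marking, clustering and naming were not tested in this way. No test between groups was possible, since suffixes have no graft, and no p-value was computed. Named genes are the 9 members, the 3 highest genes of each further list and the 3 most alike genes per member. Genes leading a cluster and the contrast of libraries 3 and 1 were chosen after the values were seen, and the members and lists were chosen with earlier results of these data known. *Gucy1a3*, *Gucy1b3* and *Ccn2* were listed and not found under these symbols. Promoter sequences are from RefSeq.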

Additional observations from a re-analysis of the deposited data

How the results depend on the processing

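No paired analysis was possible because no barcode suffix is paired with a graft and no result comes from a test between groups. Of 109 recomputed levels, 48 stayed within the counting interval of the reported level and 61 moved out of it. Of 12 recomputed folds of members between libraries 3 and 1, 10 kept their direction and their side of 4-fold, and *Myh7* turned from 3.36-fold to 0.643-fold without the atrial-like subcluster and to 0.658-fold with the mitochondrial limit, both chosen after seeing the data. In cardiomyocyte-like cells, without the mitochondrial limit the level was 1474 CPM for *Nppa*, 205 for *Nppb*, 24.3 for *Corin*, 3576 for *Ankrd1*, 620 for *Myh7*, 1154 for *Acta1* and 512 for *Xirp2*. With doublets kept it was 698 for *Nppa*, 135 for *Nppb*, 28.8 for *Npr1*, 3010 for *Ankrd1*, 212 for *Myh7*, 1154 for *Acta1* and 372 for *Xirp2*. Over all UMIs it was 825 for *Nppa*, 3426 for *Ankrd1*, 229 for *Myh7*, 1380 for *Acta1* and 422 for *Xirp2*. At a resolution of 0.4, and likewise with the unnamed cluster of 135 cells counted in, an alternative chosen after seeing the data, it was 1010 for *Nppa*, 213 for *Nppb*, 4566 for *Ankrd1*, 2111 for *Acta1* and 546 for *Xirp2*. At 500 genes or more *Acta1* was at 1571. In endothelial-like cells without the mitochondrial limit, also chosen after seeing the data, *Npr3* was at 2.08. The cause of these shifts was not tested.

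Leaving out each library in turn, the level ranged from 376 to 2812 CPM for *Nppa*, 109 to 569 for *Nppb*, 8.78 to 22.9 for *Npr1*, 1.31 to 1.99 for *Npr3*, 3.05 to 9.94 for *Corin*, 3194 to 7564 for *Ankrd1*, 118 to 274 for *Myh7*, 517 to 5377 for *Acta1* and 268 to 1328 for *Xirp2*, and in endothelial-like cells from 81.0 to 90.1 for *Npr1* and 2.68 to 14.8 for *Npr3*. Library 1 gave the extreme value that moved by over 1.5 times for *Nppa*, *Nppb*, *Npr1*, *Corin*, *Ankrd1*, *Myh7*, *Acta1*, *Xirp2* and endothelial-like *Npr3*. Leaving out library 3 lowered *Nppa* to 376, *Nppb* to 109 and *Xirp2* to 268, and leaving out library 4 lowered *Acta1* to 517.

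The depth limits *Npr1* and *Npr3* in cardiomyocyte-like cells, which had 28 and 4 UMIs, and the values of library 4, from 27 cells with the mitochondrial limit and 15 without it.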
